A study of Mus musculus with 16 samples.

Results

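Ttr, Clic6, Sostdc1, Kl, Folr1 and Aqp1, 6 genes often used as markers of the choroid plexus, were followed through a hypothalamic expression study of AgRP-deficient mice. Members were taken by gene symbol: every probe that the platform annotation assigns to 1 of these 6 genes. The rule gave 10 of the 25697 probes in the deposited table, with 1 probe each for Ttr, Clic6 and Sostdc1, 2 for Kl, 2 for Folr1 and 3 for Aqp1. The study measured hypothalamic RNA of male mice of mixed strain background on Illumina bead arrays, with 16 arrays in 4 groups of 4. The groups were AgRP+/- mice fed ad libitum, AgRP+/- mice fasted for 30 h, AgRP-/- mice fed ad libitum and AgRP-/- mice fasted for 30 h. All groups thus carried at least 1 disrupted copy of AgRP, the gene for agouti-related peptide, a feeding-promoting peptide of arcuate neurons, and the heterozygotes served as controls. The labels and protocols at hand state neither ages nor how the allele was made. Whether the 4 arrays of a group come from different animals is not stated either, so every p-value refers to the spread among arrays, and that spread may be technical.

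The choroid plexus is the epithelium that lines vascular folds in the brain ventricles and secretes cerebrospinal fluid. It lies outside the hypothalamic parenchyma, but in the third ventricle it sits close to the thalamus and habenula, so a hypothalamic dissection may or may not include some of it. Its cells make transthyretin in very large amounts and carry water channels, ion transporters and vitamin carriers on their surfaces. In a bulk tissue sample, fewer cells of a type and less RNA per cell cannot be told apart.

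All values below are log2 intensities as deposited, so that a difference of 1 is a doubling. They ran from 4.21 to 14.7, with a lower quartile of 4.49 and a median of 5.12. The arrays had nearly equal distributions and correlated between 0.989 and 0.995. Probes entered the test when at least 4 arrays exceeded that median, which kept 13662 probes. A probe was called changed at a limma p-value under 0.05 after Benjamini-Hochberg adjustment over all of these. A pair of fed arrays stood apart by pituitary transcripts: growth hormone, Gh, read 7.78 in AgRP+/- fed replicate 2 and 6.14 in AgRP-/- fed replicate 1, against 4.27 to 5.05 in the others. The fasting averages and the main correlations are given with and without these arrays. Genes listed here as markers of midbrain dopamine neurons tended to be higher after fasting, although En1 and Pitx3 of that list were not kept. Of 8 kept genes of that list 4 were called higher and none lower in the fasting average, where 2.23% of all kept probes were called higher and 1.95% lower. The 4 genes included the dopamine transporter gene Slc6a3, at 8.37 in the fed and 9.84 in the fasted arrays on average. In AgRP+/- fasted replicate 4 Slc6a3 read 7.96, within the fed range of 6.82 to 9.45.

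Only 4 of the 10 probes were kept, 1 each for Ttr, Clic6, Sostdc1 and Kl, and each of them exceeded the median in 16 of 16 arrays. The other 6 probes lay close to the lower end of the scale. Their 96 values ran from 4.27 to 5.26, and only 2 were above the median of all values. Both belonged to a Folr1 probe, ILMN_3000679, which read 5.26 in AgRP+/- fasted replicate 2 and 5.19 in AgRP-/- fasted replicate 3. Such values cannot be separated from background here, because detection p-values were not used.

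Folr1 encodes the folate receptor alpha, by which the choroid plexus moves folate into the cerebrospinal fluid. Its probe ILMN_3000679 averaged 4.64 ± 0.13 (SD, n = 4) in fed and 4.89 ± 0.25 in fasted AgRP+/- mice, and 4.85 ± 0.29 in fed and 4.75 ± 0.36 in fasted AgRP-/- mice, with overlap throughout. The other probe, ILMN_2707541, averaged 4.53 ± 0.16 (SD, n = 4) in fed and 4.54 ± 0.21 in fasted AgRP+/- mice, and 4.43 ± 0.071 in fed and 4.58 ± 0.18 in fasted AgRP-/- mice. Aqp1, the water channel of the apical membrane of the plexus epithelium, stayed between 4.27 and 5.10 over its 3 probes and 16 arrays. The second Kl probe, ILMN_2930843, lay between 4.28 and 4.73, whereas the kept Kl probe, ILMN_1253148, lay between 5.35 and 6.64, so the 2 probes of Kl disagreed on whether the gene was above the low end of the scale. The label of choroid plexus is therefore not borne out by 2 of the 6 genes, Folr1 and Aqp1, which are abundant in that epithelium. Of 33 further choroid plexus genes, 26 had a probe and 13 were kept. The 13 not kept had means between 4.39 and 4.92 and included Cldn2, the tight junction claudin of leaky epithelia, the ion channel gene Trpv4 and the plexus markers Wfikkn2 and Tmem72. The 6 genes are accordingly described by name and not as a measure of the plexus.

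**Figure D1:**
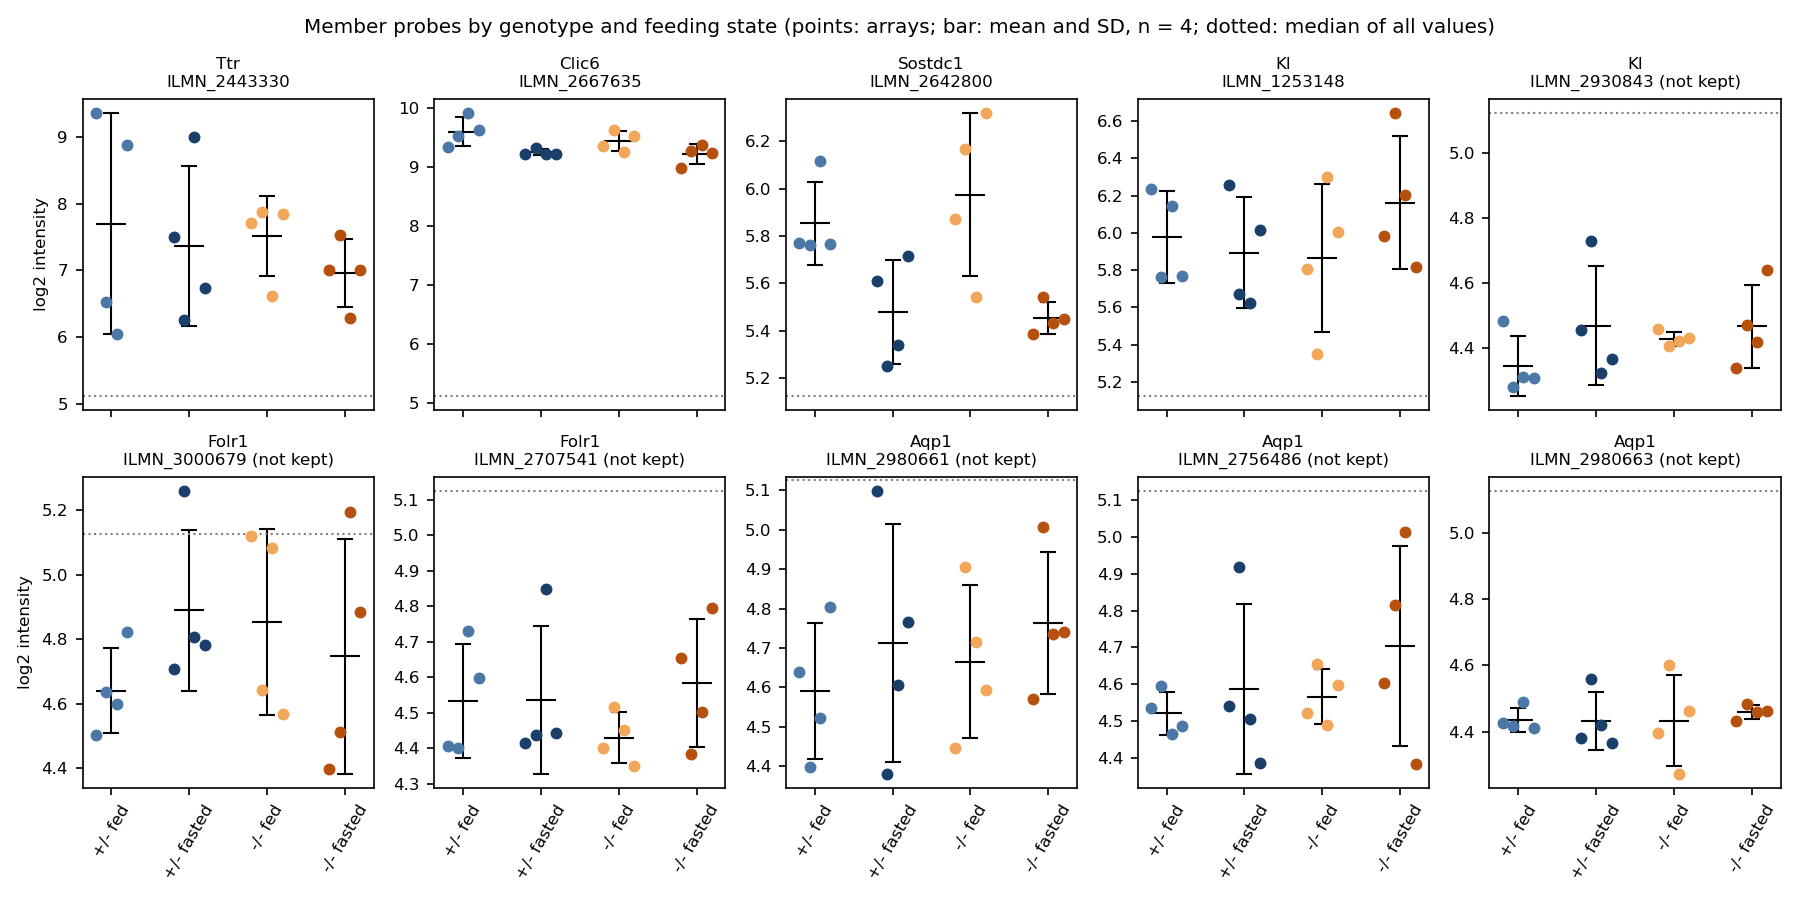
Log2 intensity of the 10 member probes in the 4 groups, with a point per array, bars for the mean and SD of 4 arrays and a dotted line at the median of all values, 5.12. Ttr spreads over several log2 units within the AgRP+/- groups, Clic6 and Sostdc1 lie lower in the fasted groups, and 6 probes sit at or under the dotted line in nearly all arrays.

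Ttr encodes transthyretin, the carrier of thyroxine and of retinol-binding protein. Among AgRP+/- fed mice its probe, ILMN_2443330, read 9.35, 6.53, 6.05 and 8.88 in replicates 1 to 4. The AgRP+/- fasted arrays gave 7.50, 6.25, 8.99 and 6.73. Fed AgRP-/- mice gave 7.71, 7.87, 6.62 and 7.85, and fasted AgRP-/- mice 7.01, 7.52, 6.29 and 7.01. The 3 highest arrays, all AgRP+/-, stood far above the rest, 2 of them fed and 1 fasted, and all 4 groups overlapped. The lowest and the highest of the fed AgRP+/- arrays differed by 3.30 log2 units, or 9.83-fold, within a single group. The SD within groups was 1.09, the 23rd highest of the 13662 kept probes, whose median was 0.178.

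By group, Ttr averaged 7.70 ± 1.65 (SD, n = 4) in AgRP+/- fed, 7.51 ± 0.60 in AgRP-/- fed, 7.37 ± 1.20 in AgRP+/- fasted and 6.96 ± 0.51 in AgRP-/- fasted mice. No neighbours in this order were separated beyond their spread. The fasting difference averaged over genotypes was -0.44, with a 95% confidence interval from -1.35 to 0.47 (limma adjusted p = 0.61). The exact permutation test over 8 against 8 arrays gave p = 0.398 (two-sided). The interval includes changes of either sign, so a difference of the size seen for the other genes was not detectable for Ttr. Without the 2 arrays that carried pituitary transcripts the fasting difference was -0.61 (limma adjusted p = 0.497). The knockout against heterozygote difference was -0.19 in fed and -0.41 in fasted mice, with intervals from -1.47 to 1.10 and from -1.70 to 0.87.

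**Figure D2:**
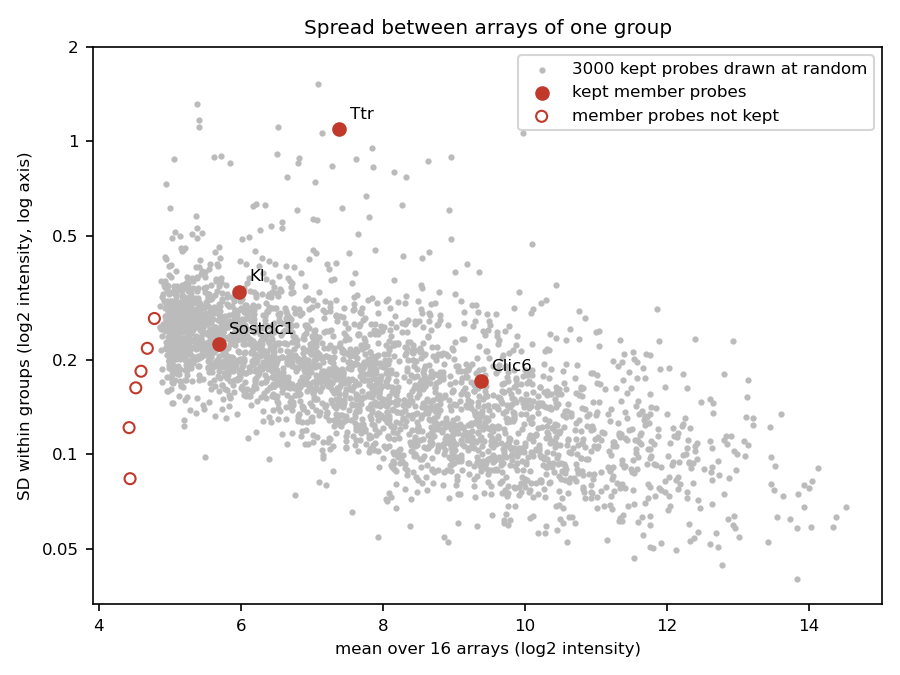
SD between arrays within groups (log2 intensity, log axis) against the mean over 16 arrays (log2 intensity), with 3000 kept probes drawn at random in grey and the member probes in red. Ttr, at an SD of 1.09, lies far above the bulk of probes, Kl at 0.33 lies high, and Clic6 at 0.171 and Sostdc1 at 0.225 lie within the bulk.

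Clic6 encodes a member of the chloride intracellular channel family. Its probe, ILMN_2667635, read 9.33, 9.52, 9.92 and 9.62 in replicates 1 to 4 of the AgRP+/- fed group. The AgRP+/- fasted group gave 9.22, 9.32, 9.23 and 9.22, all below the lowest fed heterozygote. In AgRP-/- mice the fed arrays read 9.36, 9.63, 9.26 and 9.53 and the fasted arrays 8.99, 9.27, 9.38 and 9.23, and these overlapped. Over both genotypes, 5 of 8 fed arrays lay above the highest fasted one. The group means were 9.60 ± 0.24 (SD, n = 4) in AgRP+/- fed, 9.45 ± 0.17 in AgRP-/- fed, 9.25 ± 0.051 in AgRP+/- fasted and 9.22 ± 0.16 in AgRP-/- fasted mice. Neighbouring groups in this order overlapped.

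Clic6 fell with fasting averaged over genotypes, by 0.29 on the log2 scale (SE 0.078, 95% confidence interval -0.45 to -0.13, limma adjusted p = 0.0433), which is 1.22-fold. The exact permutation test of 8 against 8 arrays gave p = 0.00249 (two-sided). Within AgRP+/- mice the difference was -0.35 (limma adjusted p = 0.203), and the groups did not overlap (exact permutation p = 0.0286, the smallest that 4 against 4 arrays allow). Groups did not overlap in that comparison for 5.7% of all kept probes. In AgRP-/- mice the difference was -0.23 (limma adjusted p = 0.391). Averaged over genotypes, the call was lost in 12 of the 16 fits that left out an array, with adjusted p from 0.0511 to 0.0877, and kept when the array left out was replicate 1 or 2 of the fed heterozygotes or replicate 3 of the fed or of the fasted knockouts. Without both arrays carrying pituitary transcripts the change was -0.32 (limma adjusted p = 0.056). Its size ranged from -0.33 to -0.24 when any 1 array was left out.

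Sostdc1 encodes a secreted protein that binds bone morphogenetic proteins and modulates Wnt signalling. Fed AgRP+/- arrays read 5.77, 5.76, 6.12 and 5.76 at its probe, ILMN_2642800, and fasted ones 5.61, 5.25, 5.34 and 5.72, with no overlap. Among AgRP-/- arrays the fed values were 5.87, 6.17, 5.54 and 6.32 and the fasted values 5.38, 5.54, 5.43 and 5.45, where the lowest fed and the highest fasted array were level. Over both genotypes, 7 of 8 fed arrays lay above the highest fasted one. The means were 5.97 ± 0.34 (SD, n = 4) in AgRP-/- fed, 5.85 ± 0.18 in AgRP+/- fed, 5.48 ± 0.22 in AgRP+/- fasted and 5.45 ± 0.067 in AgRP-/- fasted mice. The step between the second and the third of these groups was the only one between neighbours without overlap. All 16 values lay between 5.25 and 6.32, not far above the median of all values.

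Sostdc1 fell by 0.45 on the log2 scale with fasting averaged over genotypes (SE 0.11, 95% confidence interval -0.69 to -0.21, limma adjusted p = 0.034), which is 1.36-fold. The exact permutation test of 8 against 8 arrays gave p = 0.00109 (two-sided). The difference was -0.37 in AgRP+/- mice (limma adjusted p = 0.374, exact permutation p = 0.0286) and -0.52 in AgRP-/- mice (limma adjusted p = 0.165, exact permutation p = 0.0571). The averaged call was lost in 8 of the 16 fits that left out an array, with adjusted p from 0.0546 to 0.0742 and the change between -0.52 and -0.39 in all 16. Those 8 fits lacked, in turn, replicate 3 of the fed heterozygotes, replicates 2 and 4 of the fed knockouts, replicates 2 and 3 of the fasted heterozygotes, and replicates 1, 3 and 4 of the fasted knockouts. Without the arrays carrying pituitary transcripts the change was -0.48 (limma adjusted p = 0.0505).

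Kl encodes klotho, a membrane protein that acts as co-receptor for fibroblast growth factor 23 and can be shed into the cerebrospinal fluid. The kept probe read 6.23, 5.77, 6.14 and 5.77 in AgRP+/- fed and 6.26, 5.67, 5.63 and 6.01 in AgRP+/- fasted mice. It read 5.81, 5.35, 6.30 and 6.0 in AgRP-/- fed and 5.99, 6.64, 6.20 and 5.82 in AgRP-/- fasted mice. The highest and the lowest array were both AgRP-/-, and all groups overlapped. In order, the means were 6.16 ± 0.36 (SD, n = 4) in AgRP-/- fasted, 5.98 ± 0.25 in AgRP+/- fed, 5.89 ± 0.30 in AgRP+/- fasted and 5.87 ± 0.40 in AgRP-/- fed mice. Neighbours in this order did not differ beyond their spread. The fasting difference averaged over genotypes was 0.11, with a 95% confidence interval from -0.20 to 0.41 (limma adjusted p = 0.734), and without the arrays carrying pituitary transcripts it was 0.061 (limma adjusted p = 0.876). It was -0.084 in AgRP+/- and 0.30 in AgRP-/- mice, and the interaction of fasting with genotype was 0.38, with an interval from -0.24 to 1.00 (limma adjusted p = 0.9995).

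**Figure D3:**
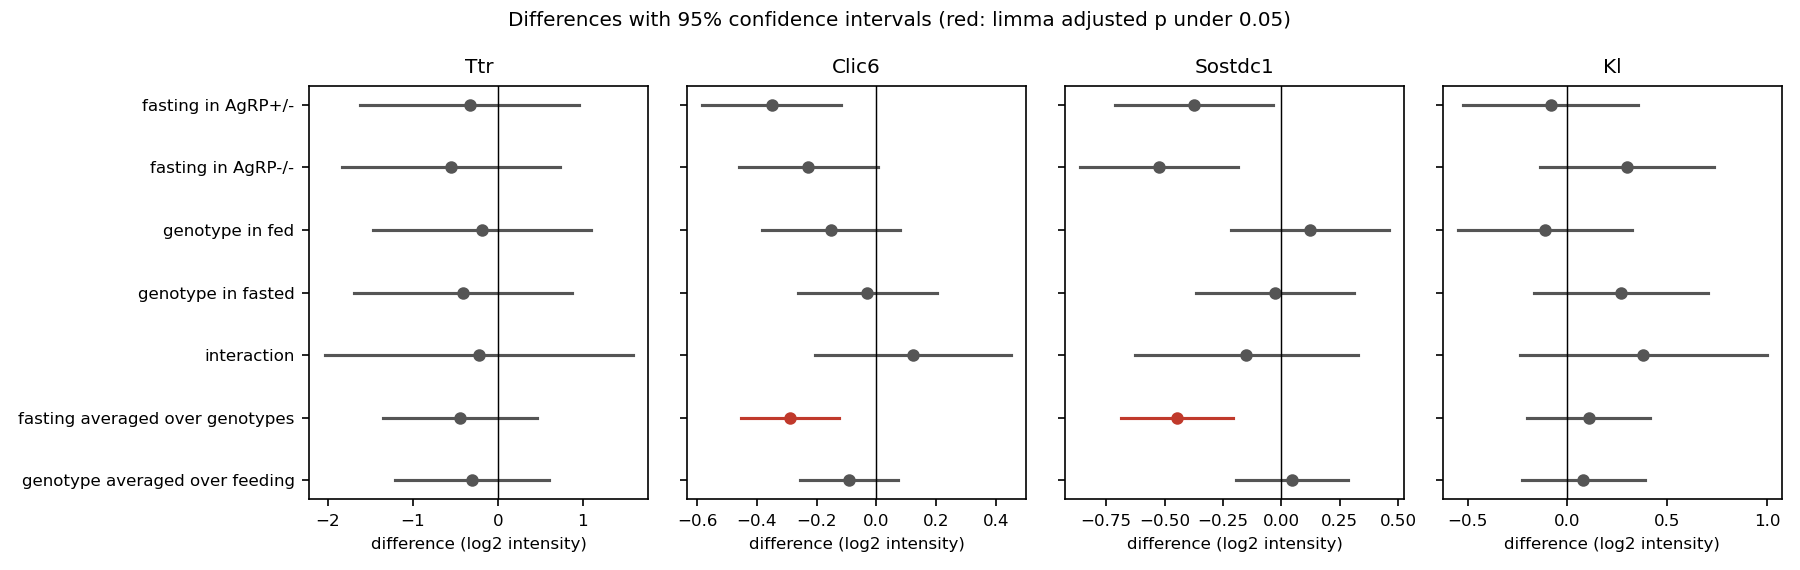
Differences in log2 intensity with 95% confidence intervals for the 4 kept probes in the 7 contrasts, in red where the limma adjusted p is under 0.05. Fasting averaged over genotypes is red for Clic6 (-0.29) and Sostdc1 (-0.45), and no other interval is red.

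Across the 4 probes tested, fasting averaged over genotypes gave 0 calls higher and 2 lower, where 2.23% of all kept probes were called higher, 1.95% lower and 4.19% in either direction. The 2 calls depended on the setting: there were 0 with no filter (adjusted p = 0.0586 for Clic6 and 0.08 for Sostdc1), 0 without the arrays carrying pituitary transcripts, and 1 with no intensity trend or with array weights, where Clic6 was the one lost (adjusted p = 0.0721 and 0.0537). Of the 16 fits that left out an array, 7 gave 0 calls, 6 gave 1 and 3 gave 2. In this contrast the median change of the 4 genes was -0.37, against -0.0014 over all kept probes. Kl lay above 0, at 0.11, and the intervals of Ttr and Kl included 0. Within AgRP+/- mice 0 of 4 were called, with 0.571% of all kept probes called higher, 0.183% lower and 0.754% in all, and 2 had an unadjusted limma p under 0.05. Within AgRP-/- mice 0 of 4 were called, with 0.271% of all kept probes called higher, 0.117% lower and 0.388% in all, and 1 had an unadjusted limma p under 0.05. The knockout comparison gave 0 calls of 4 in fed mice (0.00732% of all kept probes called), in fasted mice (0.0146%) and averaged over feeding (0.0293%), and 0 had an unadjusted limma p under 0.05. Groups that did not overlap were found for 2 of the 4 probes with fasting in AgRP+/- mice (5.7% of all kept probes) and for 0 of 4 with fasting in AgRP-/- mice (8.23%), between genotypes when fed (2.28%) and between genotypes when fasted (3.92%). For the interaction 0 of 4 were called by limma, none at an unadjusted p under 0.05, and 0% of all kept probes were called. The genotypes' responses to fasting were thus not shown to differ for any of the 4 genes: the interaction was 0.12 for Clic6 (interval -0.20 to 0.45), -0.15 for Sostdc1 (-0.63 to 0.33) and -0.22 for Ttr (-2.04 to 1.59).

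The 13 other choroid plexus genes that were kept showed no shared direction with fasting. None passed the limma test in the fasting average, 7 were above 0 and 6 below, and their median change was 0.022. The 4 member genes had a median of -0.37, with Kl above 0 and an interval for Ttr that included 0. Otx2, a homeobox factor that specifies the plexus, differed by 0.36 (adjusted p = 0.0582), opposite in sign to Clic6 and Sostdc1. Ecrg4, a secreted peptide precursor of the plexus and ependyma, differed by -0.26 (adjusted p = 0.54), Kcne2, a potassium channel subunit, by -0.17 (adjusted p = 0.562), and Igfbp2, a binding protein of insulin-like growth factors, by 0.45 (adjusted p = 0.55). By genotype 10 of the 13 were above 0 in knockouts and none was called. Differences in that comparison were 0.82 for Igf2 (adjusted p = 0.58), 0.97 for the sulphate transporter gene Slc13a4 (adjusted p = 0.636), 0.30 for Ecrg4 (adjusted p = 0.725) and -0.14 for Cab39l (adjusted p = 0.607). Igf2 and Slc13a4 are also made by meningeal cells. The list of meningeal and mural genes had 8 of 10 kept genes above 0 by genotype, with a median of 0.48 and 0 called, and its part in these differences was not tested.

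Among genes of the pathways in which the 6 members act, 3 of 52 kept genes (5.77%) were called with fasting averaged over genotypes, 1 higher and 2 lower, near the 4.19% of all kept probes called in that contrast. In retinol and thyroid hormone carriage, where transthyretin works, 1 of 11 kept genes was called lower and 0 higher: Slco1c1, a thyroxine transporter of the blood-brain barrier and plexus, fell by 0.29 (SE 0.081, limma adjusted p = 0.0491). The next smallest p-values there belonged to Aldh1a1, a retinoic acid synthesising enzyme, at 0.39 (adjusted p = 0.227), the retinoid receptor gene Rxra at 0.24 (adjusted p = 0.264) and the thyroid hormone receptor gene Thra at 0.15 (adjusted p = 0.5). Among aquaporins and ion transport genes of fluid secretion 1 of 11 was called: Car2, the cytosolic carbonic anhydrase, fell by 0.42 (SE 0.11, limma adjusted p = 0.0371). Car2 is also strongly expressed by oligodendrocytes. In the same list Aqp4, the astrocytic water channel, differed by -0.43 (adjusted p = 0.0688), the potassium-chloride cotransporter gene Slc12a4 by -0.44 (adjusted p = 0.111) and the sodium pump subunit gene Atp1b2 by 0.15 (adjusted p = 0.0924).

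For klotho and the fibroblast growth factor receptors, 1 of 7 kept genes was called: Fgfr3 rose by 0.52 (SE 0.084, limma adjusted p = 0.00139). Fgfr3 is also an astrocyte gene. The vitamin D hydroxylase gene Cyp24a1 differed by 0.26 (adjusted p = 0.211), and the calcium channel genes Trpv6 and Trpv5 by -0.13 and -0.094 (adjusted p = 0.609 and 0.728). None of 9 kept folate genes was called, with 4 above 0 and 5 below. Aldh1l1, a folate enzyme of astrocytes, differed by 0.18 (adjusted p = 0.0963), the thymidylate synthase gene Tyms by -0.17 (adjusted p = 0.379), the mitochondrial folate enzyme gene Mthfd2 by -0.16 (adjusted p = 0.37) and the proton-coupled folate transporter gene Slc46a1 by -0.11 (adjusted p = 0.511). In the chloride intracellular channel family Clic1 alone was kept besides Clic6, at 0.11 (adjusted p = 0.678). The list for bone morphogenetic protein and Wnt antagonism, the function of Sostdc1, also held ligands, receptors and target genes. None of its 13 kept genes was called. Bmp4 differed by 0.45 (adjusted p = 0.195), the antagonist gene Nog by 0.31 (adjusted p = 0.243), and the target genes Id1 and Axin2 by 0.21 and 0.17 (adjusted p = 0.237 and 0.232). By genotype none of the 6 pathway lists had a called gene, and the smallest adjusted p was 0.429, for Id1 at 0.29.

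Marker lists of neighbouring tissue differed in how they went with fasting, and their part in the fasting difference of Clic6 and Sostdc1 was not tested beyond the covariate fits given here. Ependymal genes, which mark the ciliated lining of the ventricle, had 7 of 7 kept members below 0 with fasting, a median of -0.31 and 0 called. Foxj1, the ciliary master factor, differed by -0.35 (limma adjusted p = 0.073). The mean deviation of the ependymal list ran from -0.098 to 0.64 in AgRP+/- fed, 0.093 to 0.20 in AgRP-/- fed, -0.38 to 0.26 in AgRP+/- fasted and -0.33 to 0.11 in AgRP-/- fasted arrays. For midbrain dopamine genes 8 of 8 kept members lay above 0 with fasting, with a median of 0.51. The list ranged from -0.50 to -0.097 in AgRP+/- fed, -0.85 to 0.036 in AgRP-/- fed, -0.45 to 0.49 in AgRP+/- fasted and 0.37 to 0.59 in AgRP-/- fasted arrays. Its defining genes En1 and Pitx3 were not kept, at means of 4.85 and 4.56. Other lists of neighbouring tissue had medians closer to 0 in the fasting average. The median was -0.069 for tanycyte genes (3 of 6 kept genes above 0, 0 called), 0.074 for thalamus and habenula (7 of 10, 0 called), 0.10 for hippocampus and striatum (5 of 8, 0 called) and 0.024 for endothelium (5 of 7, 1 called lower). For meningeal and mural genes it was 0.25 (8 of 10, 0 called). Of all kept probes, 2.23% were called higher and 1.95% lower in the fasting average, with a median change of -0.0014. With the averaged level of the dopamine neuron genes Th, Slc6a3 and Chrna6 as a covariate, the fasting differences were -0.15 for Clic6 (limma adjusted p = 0.61) and -0.28 for Sostdc1 (limma adjusted p = 0.497), and neither was called. That covariate itself differs between fed and fasted arrays, so it and fasting cannot be fully told apart. With the meningeal and mural list as covariate they were -0.26 (limma adjusted p = 0.0548) and -0.41 (limma adjusted p = 0.0437).

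The 4 kept members did not vary as a set over the 16 arrays. Clic6 and Sostdc1 went together, with a Pearson r of 0.72 (permutation p = 0.00171) and a Spearman rho of 0.67 (permutation p = 0.00543). Without the 2 arrays farthest from the median of Clic6 r was 0.67, and without the 2 that carried pituitary transcripts it was 0.73. A total of 58 relations were computed, among the members and with 13 marker lists, each over 16 arrays and within the 8 fed and the 8 fasted arrays, which makes 174 correlations. Benjamini-Hochberg adjustment over the 174 was done separately for r and for rho. After it, the relation of Clic6 with Sostdc1 had a permutation p of 0.104 for r and 0.315 for rho. Within the fed arrays r was 0.60 and within the fasted arrays -0.049 (n = 8 each, exact permutation p = 0.121 and 0.904). The fed and the fasted arrays differ in both genes, and the pooled relation did not hold within the fasted arrays. With deviations from group means, r over the 16 arrays was 0.56. Ttr had an r of -0.058 with Clic6 and 0.15 with Sostdc1, and Kl lay between -0.21 and -0.12 with the other 3.

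Within the 8 fed arrays, Ttr followed the mean deviation of the thalamus and habenula list, which shares Tac2 with the hypothalamus list. The cause was not tested. In these 8 arrays r was 0.946 (exact permutation p = 0.000273, adjusted over the 174 correlations 0.0475) and rho was 0.952 (exact permutation p = 0.00114, adjusted 0.199). Only r passed, r and rho were adjusted separately, and the lists were chosen with earlier results of these data known. The r without the 2 arrays farthest from the median of Ttr was 0.977. In the 6 fed arrays left without those carrying pituitary transcripts r was 0.946 (exact permutation p = 0.00694, not adjusted) and rho was 1, a check chosen after seeing the data. In the fed arrays 8 of the 10 kept genes of the list had a positive r with Ttr, the highest being 0.936 for Ramp3, 0.883 for Gbx2 and 0.867 for Prkcd. Within the 8 fasted arrays r was 0.105 (exact permutation p = 0.792), and 5 of 10 genes were positive. The difference between the fed and the fasted arrays was not tested. Over all 16 arrays r was 0.57 and rho 0.47 (permutation p = 0.0225 and 0.0668, adjusted 0.261 and 0.778), and r was 0.40 without the 2 farthest arrays and 0.55 without the pituitary pair. AgRP+/- fasted replicate 3 was an exception, with a Ttr value of 8.99 and a mean deviation of the thalamic list of 0.055.

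**Figure D4:**
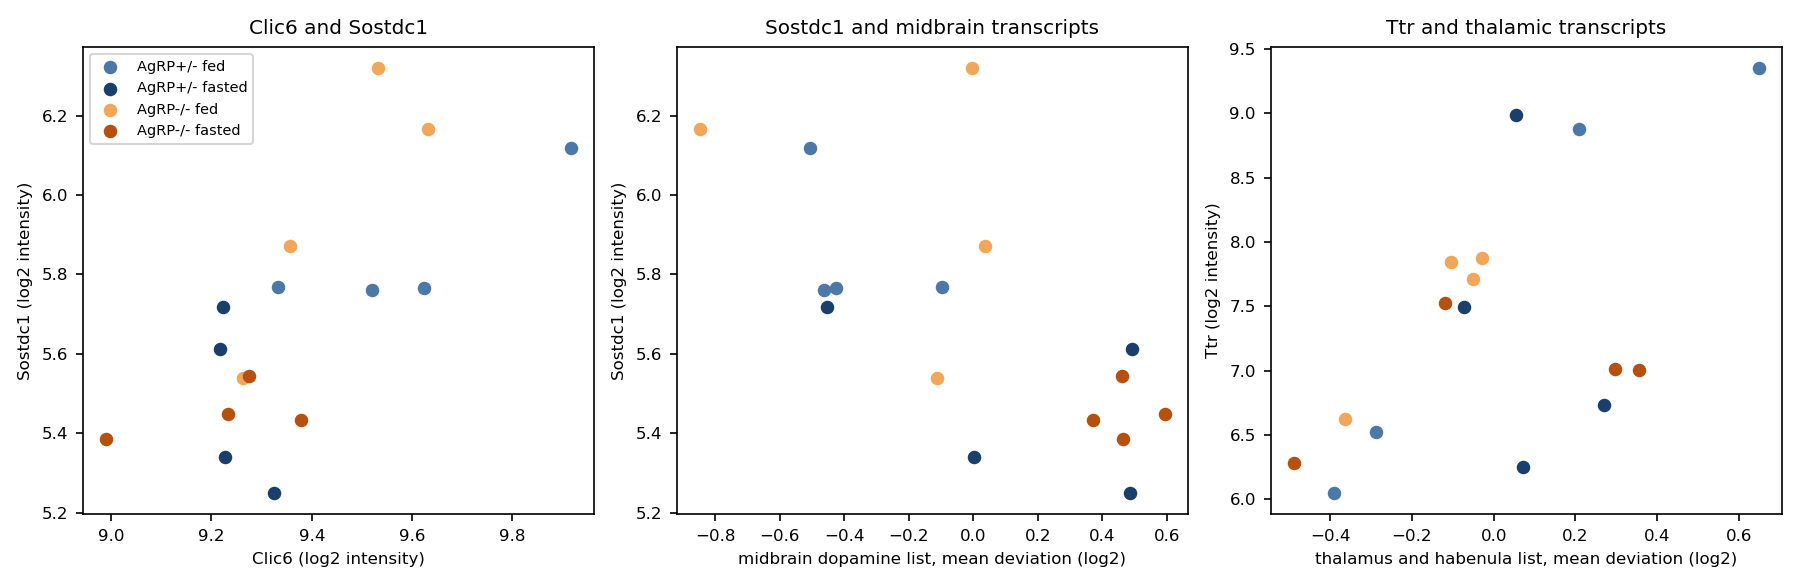
Sostdc1 against Clic6, Sostdc1 against the mean deviation of the midbrain dopamine list and Ttr against that of the thalamus and habenula list, all in log2 units with a point per array coloured by group. Fed arrays of Ttr lie along a rising line (r = 0.946, n = 8) and fasted arrays do not (r = 0.105, n = 8), and in the first panel the fasted arrays lie at the lower left.

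Clic6 and Sostdc1 ran against the midbrain dopamine list, with an r of -0.67 each (permutation p = 0.00371 and 0.00514, adjusted 0.129 and 0.149) and a rho of -0.62 and -0.63. Without the pituitary pair r was -0.66 for Clic6 and -0.69 for Sostdc1. Within the fed arrays r was -0.65 for Clic6 and -0.23 for Sostdc1. Within the fasted arrays r was 0.00058 for Clic6 and -0.46 for Sostdc1, so the pooled relation for Clic6 was absent among fasted arrays. Clic6 also went with the ependymal list, at an r of 0.71 (permutation p = 0.00238, adjusted 0.104) and a rho of 0.59, but r was 0.38 without the 2 arrays farthest from the median of Clic6, so that relation rests largely on those arrays. It was 0.74 without the pituitary pair. Clic6 ran against the endothelium list within the fed arrays (r = -0.90, exact permutation p = 0.00238, adjusted 0.104), with an r of 0.056 within the fasted arrays. Against the oligodendrocyte list r was -0.64 over all arrays (permutation p = 0.0109, adjusted 0.234) and -0.099 without the 2 farthest arrays. Kl had its highest values of r with the pituitary list (0.62), the meningeal and mural list (0.59) and the other choroid plexus genes (0.58), each with an adjusted permutation p of 0.234. With the other choroid plexus genes r was -0.35 for Clic6, -0.27 for Sostdc1 and 0.17 for Ttr (adjusted permutation p = 0.63, 0.76 and 0.84). The r of Kl with the pituitary list was 0.24 without the 2 farthest arrays and 0.62 without the pituitary pair, where the meningeal and mural list and the other choroid plexus genes gave 0.55 each. The kept genes of the pituitary list were Cga, Chgb and Dlk1, without Gh and Prl. The list did not register the pituitary pair, whose mean deviations were -0.078 in AgRP+/- fed replicate 2 and -0.065 in AgRP-/- fed replicate 1. Its highest array was AgRP-/- fasted replicate 2, at 0.75, where Gh read 4.27. Apart from the r of Ttr with the thalamic list within fed arrays, whose rho did not pass, no correlation passed the adjustment.

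**Figure D5:**
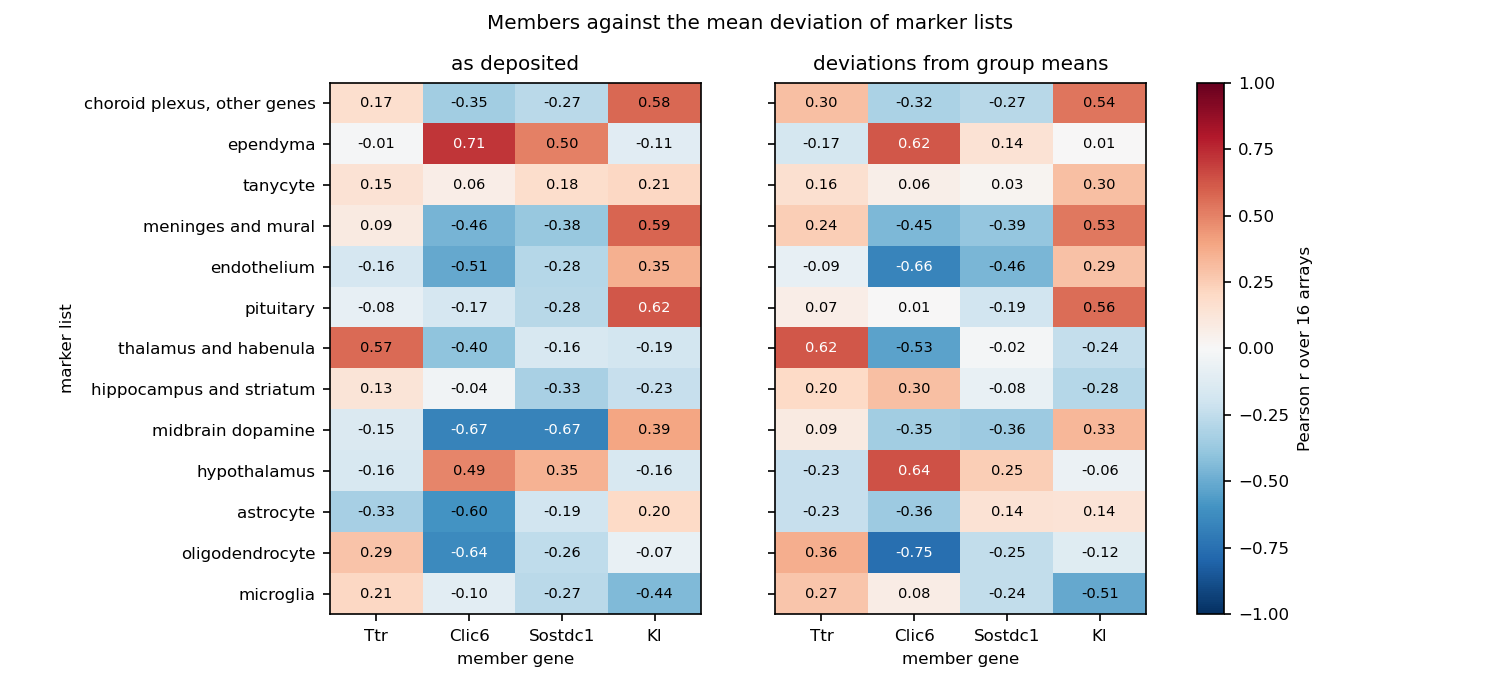
Pearson r over 16 arrays of each kept member with the mean deviation of 13 marker lists, for values as deposited and for deviations from group means. Columns differ from each other: as deposited, Ttr is highest for thalamus and habenula (0.57), Clic6 for ependyma (0.71), and Kl for pituitary (0.62) and the meningeal and mural list (0.59). In deviations from group means Clic6 is highest for the hypothalamus list (0.64, against 0.62 for ependyma). The kept genes of the pituitary list do not include Gh and Prl.

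As a description of likeness, the kept named genes, 9530 in all, were ranked by their correlation over the 16 arrays with the mean standardised value of the 4 members. The 12 highest were Gabrg1 (r = 0.85), Galnt15, Alg6, Ralyl, Fgf10, 3830406C13Rik, Atg12, Tbcc, Lsm6, Zfp39, Poc1b and Ncl (r = 0.73). Only 1 of these 12, Gabrg1, was also among the 12 highest when deviations from group means were used. The members' own r with the mean was 0.81 for Sostdc1, 0.67 for Clic6, 0.43 for Ttr and 0.24 for Kl. Each member is part of that mean, so these values are raised by construction and do not measure agreement within the set. Taken singly, the genes most like Ttr were Fgg (0.76), Gbx2 (0.76) and Ucn3 (0.73). Those most like Clic6 were Trpc7 (0.89), the neuropeptide gene Gal (0.87) and Scgn (0.86). For Sostdc1 they were Coq10b (0.84), Dpf1 (0.83) and Tmem63c (0.81), and for Kl they were Shc1 (0.80), Dpp4 (0.79) and Ak3 (0.79). Only 2 of these 12, Fgg and Shc1, stayed among the 3 most alike when deviations from group means were used, and the others ranked as low as 60th. With the group means in, the likeness to Clic6 and Sostdc1 includes their difference between fed and fasted arrays. Members were left out of these rankings beforehand. None of the 12 belongs to the list of other choroid plexus genes.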

How the data were processed

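The authors' deposited values are log2 intensities, for 25697 probes on 16 arrays, and groups and replicate numbers came from the sample titles. The submitters' processing notes name limma without version or role, and how background and arrays were adjusted is not stated in what was available here. Gene symbols came from the platform annotation (23978 with a symbol, 1719 without), and 23962 matched a RefSeq gene table of GRCm38.p6 by gene identifier. The main fit used limma 3.58.1 in R 4.3.3 with 1 coefficient per group, trended moderation and 12 residual degrees of freedom, on 13662 probes (53.2%) above 5.12 in at least 4 arrays. Of several probes for a list gene the brightest on average was used, and a list's mean deviation is the average over its kept genes of each array's difference from the 16-array mean. Named genes were the members, all called genes of a pathway or choroid plexus list and the 4 with the smallest p in each average, and the 12 (whole set) or 3 (per member) most alike. The members and lists were chosen with earlier results of these data known. Genes of the marker lists, and the thalamic genes correlated with Ttr, were named after their values were seen. Permutations numbered 1e+05 for correlations over 16 arrays. The model was tested on simulated data. Slides and scan batches were not used here, and precision is limited by the number of arrays.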

Additional observations from a re-analysis of the deposited data

Results flagged for a closer look

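Dixon's test compares the gap between an extreme array and its nearest neighbour with the range of its group. It was applied to 40 groups of 4 arrays, and chance flags about 1 in 20. It picked out 5. The Ttr probe read 6.62 in AgRP-/- fed replicate 3, against 7.71 to 7.87 in the other arrays of that group. Clic6 read 9.32 in AgRP+/- fasted replicate 2, against 9.22 to 9.23. Sostdc1 read 6.12 in AgRP+/- fed replicate 3, against 5.76 to 5.77, and the fasting call of Sostdc1 was lost without that array. The low Kl probe ILMN_2930843 read 4.48 in AgRP+/- fed replicate 1, against 4.28 to 4.31, and the Folr1 probe ILMN_2707541 read 4.85 in AgRP+/- fasted replicate 3, against 4.42 to 4.44. The last 2 lie where signal cannot be separated from background. AgRP+/- fed replicate 3 was also the array with the highest Clic6, at 9.92, and the lowest Ttr, at 6.05. Its mean deviation was the highest of all arrays for the ependymal (0.64) and hypothalamus (0.25) lists. It was the lowest for the meningeal and mural (-0.90), endothelium (-0.30), oligodendrocyte (-0.44) and astrocyte (-0.14) lists. Whether tissue content bears on its member values was not tested.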

How the results depend on the processing

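The count of 2 member probes called lower with fasting averaged over genotypes depended on the setting. It was 2 with quantile normalization once more and with median centring. It was 1 with a stricter filter, with no intensity trend, with array weights and with the meningeal and mural list as covariate, and 0 with no filter, without the 2 arrays with pituitary transcripts and with dopamine transcripts as covariate. Leaving out each array in turn gave 0 to 2. The last 3 fits, with a covariate or without the pituitary arrays, were chosen after seeing the data. The stricter filter did not test Sostdc1 and Kl. In the other 6 contrasts the count was 0 in every alternative run. Fitting the replicate number as a block kept the count at 2, with limma adjusted p = 0.0316 for Clic6 and 0.04 for Sostdc1, and changed no other call. As deposited, all arrays correlated between 0.989 and 0.995. In a check of pairing not made on the deposited values, same-numbered arrays of different groups correlated between -0.19 and 0.30. These values alone cannot show whether the numbers pair the samples. Clic6 and Sostdc1 kept a negative fasting average in all alternatives, from -0.33 to -0.15 and from -0.52 to -0.28. Signs that turned all belong to differences that were not called, and the cause was not tested. With array weights Sostdc1 in fasted genotypes was 0.035 and the Ttr interaction 0.35, and without the pituitary arrays that interaction was 0.23. With the dopamine covariate the genotype difference in fasted mice was 0.056 for Clic6 and 0.074 for Sostdc1, the Kl fasting average was -0.098 and the Kl genotype average -0.0054. With the meningeal covariate the values were 0.060 for Clic6 and 0.074 for Sostdc1 in fasted mice and -0.044 for the Kl genotype average. Over the arrays left out in turn, Ttr ran from -0.88 to 0.22 for fasting in AgRP+/-, -0.74 to 0.36 for genotype in fed, -0.78 to 0.13 for genotype in fasted mice and -0.77 to 0.33 for the interaction. Kl ran from -0.21 to 0.0043 for fasting in AgRP+/-, -0.26 to 0.060 for genotype in fed mice and -0.0010 to 0.17 for the genotype average. Sostdc1 ran from -0.10 to 0.052 for genotype in fasted mice and -0.010 to 0.12 for the genotype average, and Clic6 from -0.083 to 0.047 for genotype in fasted mice. Low signal limits Folr1, Aqp1 and the second Kl probe, and 4 arrays a group limit Ttr.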
